A study of Mus musculus with 9 samples.

Results

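The genes described here are 50 genes of mitosis and the spindle checkpoint, taken by name from the table of counts that the study deposited, among them Cdk1 and its cyclins, the kinases and motors of the spindle, the kinetochore, the checkpoint, condensin and the factors that drive their transcription. All 50 were found among the 55450 genes of the table, and all 50 passed the filter on low counts, which left 19357 genes tested. They were measured by RNA sequencing in 9 libraries of live EYFP+ mammary cells, with 3 libraries in each of 3 genotypes of adult nulliparous mice. Control cells came from mice that carried lsl-EYFP and K8CreERT2 alone. LATS1/2-KO cells carried LATS1/2f/f in addition, and LATS1/2-Sox9-KO cells carried both LATS1/2f/f and Sox9f/f in addition. The control mice therefore carried the reporter and the Cre too, and every mouse received 2 mg of tamoxifen on each of 5 days, with cells sorted 7 days after the last dose. K8CreERT2 is a tamoxifen-activated Cre driven from Keratin 8, a keratin of luminal epithelium, so the cells collected are those in which the reporter was recombined, and a cell with EYFP need not have lost every floxed allele. The libraries held 47003587, 46719296 and 44167762 counts in control, 50508666, 61745346 and 57331239 in LATS1/2-KO, and 61967651, 55503365 and 59696754 in LATS1/2-Sox9-KO. The labels number the replicates without saying that each came from a separate mouse, so the p-values below measure the spread between these libraries.

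Mitosis is started by the kinase CDK1 bound to its cyclins and is held at metaphase by the spindle assembly checkpoint until every chromosome is attached to the spindle. The anaphase-promoting complex (APC/C) with its activator CDC20 then destroys cyclin B and securin, which frees separase to cut the cohesin that holds sister chromatids together. Transcripts of most of these genes are low in resting cells and peak late in the cell cycle, and LATS1 and LATS2 are the kinases of the Hippo pathway that restrain the growth-promoting coactivators YAP and TAZ. In bulk libraries, a higher share of dividing cells and more mitotic RNA in each dividing cell cannot be told apart.

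The targeted genes were read first. Lats1 was at 105, 110.1 and 110.4 CPM in control, at 38.8, 35.7 and 43.4 CPM in LATS1/2-KO and at 38.2, 34.3 and 31.7 CPM in LATS1/2-Sox9-KO, where CPM is the counts-per-million value after TMM scaling and the values follow the replicate numbers. Every library with floxed Lats alleles was below every control library, with a log2 fold change of -1.47 ± 0.11 (SE), adjusted p = 7.07e-06 in LATS1/2-KO versus control (edgeR quasi-likelihood test, Benjamini-Hochberg adjusted over all tested genes, as for every adjusted p below). Lats2 was at 19.3, 16.1 and 22.7 CPM in control, at 23.3, 26.6 and 32.01 CPM in LATS1/2-KO and at 36.4, 29.4 and 23.03 CPM in LATS1/2-Sox9-KO. These counts did not fall with the labels: in LATS1/2-KO versus control the log2 fold change was 0.499, with an adjusted p of 0.0571. That adjusted p was 0.0421 without control replicate 3, 0.0361 without LATS1/2-KO replicate 1, 0.0347 with upper-quartile factors and 0.0416 when only these 2 groups were fitted. In LATS1/2-Sox9-KO versus control Lats2 was higher by 0.61 on the log2 scale, with an adjusted p of 0.024, which became 0.0599 without control replicate 1, 0.0929 without control replicate 2 and 0.0803 without LATS1/2-Sox9-KO replicate 1. Sox9 was at 433, 371 and 400.1 CPM in control, at 134, 177 and 231 CPM in LATS1/2-KO and at 164, 126 and 120.02 CPM in LATS1/2-Sox9-KO. It was lower in both KO groups than in control and the KO groups overlapped, with a log2 difference between them of -0.404 (95% interval -0.83 to 0.026, adjusted p = 0.25). The counts cover all exons of a gene, and the labels do not say which exons the floxed alleles lose. The counts of Lats2 and Sox9 therefore do not settle whether these alleles were lost. Both KO groups are known here by their labels wherever a direction is given. The study states that its RNA sequencing showed the genetic changes expected of the sorted EYFP+ cells. All 6 luminal markers read were tested and found in every library. The keratin gene Krt18 was at 4453, 4598 and 4792 CPM in control, at 7141, 7965 and 7557 CPM in LATS1/2-KO and at 14668, 13349 and 11870.4 CPM in LATS1/2-Sox9-KO. Not every luminal marker was highest in the KO groups. Krt19 was at 3251, 3249 and 4131 CPM in control, at 2484, 1170.4 and 1554 CPM in LATS1/2-KO and at 2919.9, 2597 and 2719 CPM in LATS1/2-Sox9-KO. Epcam, an adhesion gene of epithelium, was at 2328, 2226 and 1999.96 CPM in control, at 1207, 1358 and 1353 CPM in LATS1/2-KO and at 919, 826 and 919.8 CPM in LATS1/2-Sox9-KO, with every KO library below every control library.

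The mitotic genes rose together in both KO groups. In LATS1/2-KO versus control, 49 of the 50 genes were called higher (log2 fold change above 1 and adjusted p of at most 0.05) and 0 were called lower, beside 17.1% of all tested genes called higher and 17.5% called lower. The median log2 fold change of the 50 genes was 3.60, a 12.1-fold difference, beside a median of 0.039 over all tested genes. For 36 of them the fold change was above 3 on the log2 scale, and for 18 it was above 4. In LATS1/2-Sox9-KO versus control, 49 genes were again called higher and 0 lower. Their median was 3.68 on the log2 scale, beside 17.8% of all tested genes called higher, 19.6% called lower and a median of 0.013. Both comparisons use the same 3 control libraries, so they are not independent. For 49 of the 50 genes, every LATS1/2-KO library lay above every control library, which held for 31.3% of all tested genes, and the same number lay above control in LATS1/2-Sox9-KO, which held for 34.9% of all tested genes. The gene that did not rise in either comparison was Pttg1. With 3 libraries a group, an exact permutation test cannot give a p below 0.1, so the tests rest on the spread estimated over all 9 libraries.

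**Figure D1:**
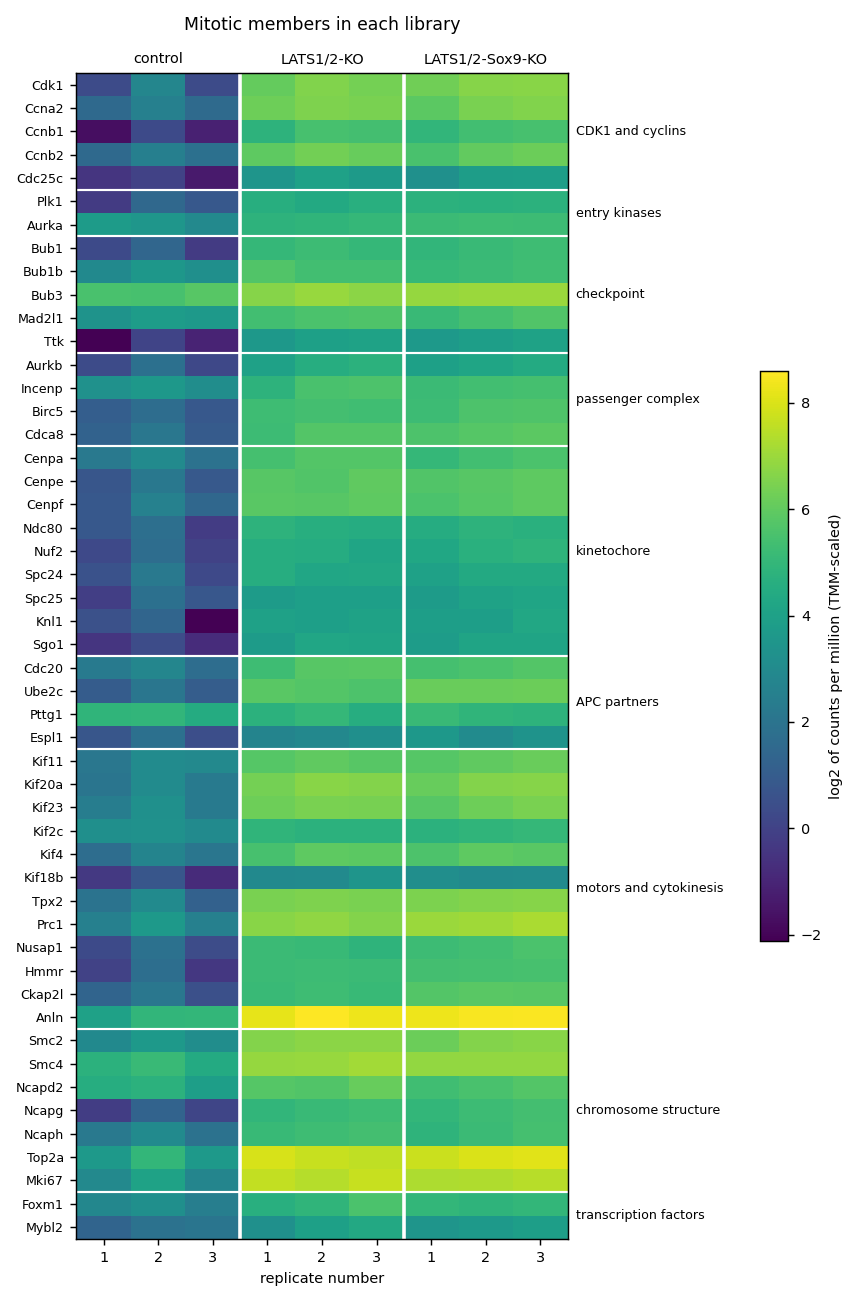
Log2 of TMM-scaled CPM for the 50 mitotic genes (rows, grouped by role) in the 9 libraries (columns, by genotype and replicate number). The scale is shared by all rows, which start from different levels; within each row except that of Pttg1, every one of the 6 KO libraries is lighter than every control library, and control replicate 2 is the lightest control column in most rows.

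The promoters of these genes were read from the RefSeq table of the mouse build GRCm38.p6, which gives 300 bases for each start, from 250 before it to 50 after it. For 41 of the 50 genes the table holds 43 windows. Letter patterns known from cell cycle promoters were searched on both strands, namely CCAAT or its complement ATTGG (the box bound by NF-Y), TTTGAA or its complement TTCAAA (the cell cycle genes homology region, CHR, bound by the MuvB core), and TTCGAA, a variant of the CHR. CCAAT or ATTGG was found in 32 of the 43 windows (74.4%) and in 37.4% of all 32851 windows of the table. TTTGAA or TTCAAA was also found in 32 of the 43 windows (74.4%), against 17.9% of all windows, and TTCGAA in 4 (9.30%), against 1.56%. Both of the first 2 patterns stood in the same window in 28 cases (65.1%), against 6.95% of all windows. Of the 39 CHR matches, 30 (76.9%) began within 50 bases of the start, while 25.3% of the 6737 matches in all windows did. A match is a description of the letters and does not show that a factor binds there. The 7 windows without any of the patterns included those of Pttg1 and Birc5. The median log2 fold change in LATS1/2-KO versus control was 3.59 for the 30 genes with TTTGAA or TTCAAA and 3.99 for the 11 without. Among the 11 were Bub1 and Sgo1, whose windows held the variant TTCGAA, and the difference was not tested. The sequences of 5 genes are shown because each has the highest level per length of its role group, from 120 bases before the start to 30 after it, 5′ to 3′ on the strand of the gene, with matches to the 3 patterns in capitals.
Ccnb2, chr9:70421525-70421674, minus strand: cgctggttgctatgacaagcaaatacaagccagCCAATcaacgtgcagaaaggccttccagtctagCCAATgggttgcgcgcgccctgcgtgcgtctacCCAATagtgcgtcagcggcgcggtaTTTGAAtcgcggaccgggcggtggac
Top2a, chr11:99024160-99024309, minus strand: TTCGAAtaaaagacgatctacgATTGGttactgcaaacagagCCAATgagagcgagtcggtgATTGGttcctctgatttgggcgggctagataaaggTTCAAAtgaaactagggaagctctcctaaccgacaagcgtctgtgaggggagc
Aurka, chr2:172370541-172370690, minus strand: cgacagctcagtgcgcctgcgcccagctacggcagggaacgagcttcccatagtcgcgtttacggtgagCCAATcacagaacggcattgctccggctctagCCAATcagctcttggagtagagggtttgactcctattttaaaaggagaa
Anln, chr9:22389177-22389326, minus strand: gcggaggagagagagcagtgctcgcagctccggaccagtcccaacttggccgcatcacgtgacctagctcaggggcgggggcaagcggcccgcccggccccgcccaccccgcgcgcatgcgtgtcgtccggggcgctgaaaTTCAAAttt
Birc5, chr11:117849117-117849266, plus strand: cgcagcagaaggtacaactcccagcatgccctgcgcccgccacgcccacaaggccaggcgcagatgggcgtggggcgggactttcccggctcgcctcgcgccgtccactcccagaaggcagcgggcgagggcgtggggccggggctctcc
In Ccnb2 and Top2a, spaced copies of CCAAT or ATTGG were followed by a CHR match near the start. Aurka held 2 copies of CCAAT before the start and a CHR match at position 33 after it, just past the bases shown. Anln held TTCAAA with no CCAAT, and Birc5, whose transcript rose by 4.06 on the log2 scale, held none of the patterns.

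**Figure D2:**
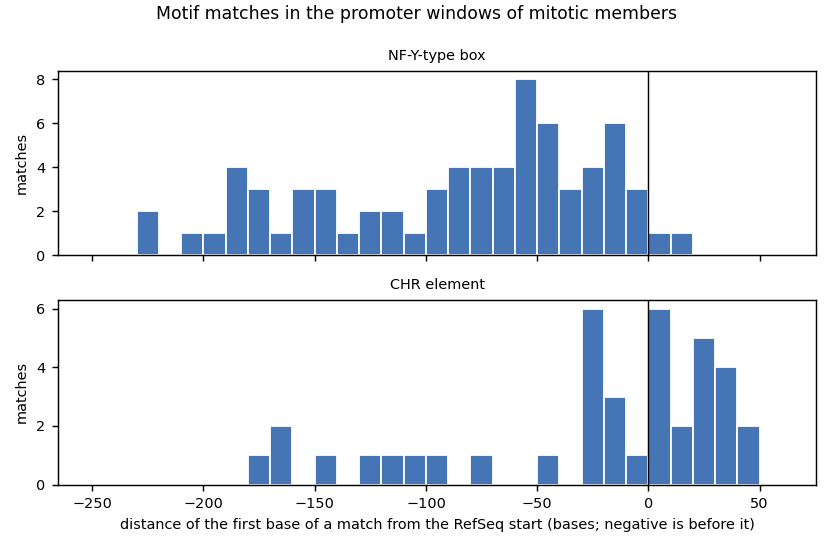
Number of matches in bins of 10 bases along the 43 promoter windows of the mitotic genes, by the distance of the first base of a match from the RefSeq start, for CCAAT or ATTGG (upper panel, NF-Y-type box) and TTTGAA or TTCAAA (lower panel, CHR element). The 71 box matches have a median position of -68 and 69 of them begin before the start, while the 39 CHR matches have a median position of -5, with 20 before the start and 19 after it.

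CDK1, its B- and A-type cyclins and the phosphatase CDC25C, which removes the inhibitory phosphates of CDK1, had the highest median log2 fold change of the 9 role groups, 4.44. All 5 genes were called higher in LATS1/2-KO, with log2 fold changes from 4.11 to 5.84. Ccnb1, which encodes cyclin B1 (ENSMUSG00000041431, chr13:100778650-100786570, minus strand), was at 0.302, 1.22 and 0.462 CPM in control, at 28.3, 44.2 and 42.3 CPM in LATS1/2-KO and at 30.9, 40.4 and 44.4 CPM in LATS1/2-Sox9-KO. It was low in every control library and far below the KO libraries, which overlapped between the KO groups, with a log2 fold change of 5.84 ± 0.44 (SE), adjusted p = 6.29e-06 in LATS1/2-KO, the largest of the 50 genes. Cdk1 (ENSMUSG00000019942, chr10:69335146-69352938, minus strand) was at 1.27, 6.97 and 1.27 CPM in control, at 66.4, 94.98 and 81.7 CPM in LATS1/2-KO and at 77.9, 101 and 104 CPM in LATS1/2-Sox9-KO. Control replicate 2 stood above the other 2 control libraries but far below every KO library, and the log2 fold change was 4.67 ± 0.604 (SE), adjusted p = 0.000129 in LATS1/2-KO, or 5.99 without that library. Ccnb2, the cyclin B2 gene (ENSMUSG00000032218, chr9:70407692-70421547, minus strand), was at 2.91, 5.65 and 3.61 CPM in control, at 61.1, 80.1 and 68.6 CPM in LATS1/2-KO and at 45.4, 64.5 and 73.04 CPM in LATS1/2-Sox9-KO. Its libraries overlapped between the KO groups and were apart from control, with a log2 fold change of 4.11 ± 0.28 (SE), adjusted p = 3.68e-06. Ccna2 and Cdc25c rose by 4.44 and 4.22 on the log2 scale. In LATS1/2-Sox9-KO versus control, the 5 genes ranged from 3.91 to 5.85.

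The kinases of mitotic entry and of the spindle poles, PLK1 and AURKA, rose by different amounts. Plk1 rose by 3.67 on the log2 scale in LATS1/2-KO. Aurka (ENSMUSG00000027496, chr2:172356190-172370535, minus strand) was at 13.6, 11.4 and 7.72 CPM in control, at 27.8, 30.1 and 32.5 CPM in LATS1/2-KO and at 36.9, 38.2 and 37.3 CPM in LATS1/2-Sox9-KO. The groups did not overlap, but the level in control was already high, and the log2 fold change was 1.47 ± 0.19 (SE), adjusted p = 0.000122 in LATS1/2-KO and 1.78 ± 0.19 (SE), adjusted p = 3.1e-05 in LATS1/2-Sox9-KO. The difference between the KO groups was 0.31 (95% interval -0.096 to 0.72).

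All 5 genes of the spindle assembly checkpoint were called higher, over a wide range. Ttk, which encodes the kinase MPS1 that starts checkpoint signalling at the kinetochore (ENSMUSG00000038379, chr9:83834689-83872389, plus strand), was at 0.237, 1.05 and 0.486 CPM in control, at 12.2, 15.6 and 16.5 CPM in LATS1/2-KO and at 12.5, 14.8 and 16.6 CPM in LATS1/2-Sox9-KO. It was below 1 CPM in control replicates 1 and 3 and did not overlap between control and KO, with a log2 fold change of 4.63 ± 0.43 (SE), adjusted p = 1.82e-05. Bub3, which carries BUB1 and BUBR1 to the kinetochore (ENSMUSG00000066979, chr7:131560222-131571895, plus strand), was at 46.5, 44.7 and 56.998 CPM in control, at 102, 123 and 107 CPM in LATS1/2-KO and at 118, 125 and 128 CPM in LATS1/2-Sox9-KO. It had the highest level of the checkpoint genes and the smallest rise among the genes called in LATS1/2-KO, with a log2 fold change of 1.16 ± 0.12 (SE), adjusted p = 3.75e-05 in LATS1/2-KO. Every KO library was above every control library, and the KO groups overlapped. The kinase gene Bub1 rose by 4.42 on the log2 scale, the BUBR1 gene Bub1b by 2.21, and Mad2l1, whose product binds CDC20, by 1.89. In LATS1/2-Sox9-KO versus control the same genes ranged from 1.32 for Bub3 to 4.62 for Ttk.

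The chromosomal passenger complex, which corrects wrong attachments of chromosomes and then moves to the midzone, rose in all 4 subunits. Birc5, the survivin gene (ENSMUSG00000017716, chr11:117849251-117855743, plus strand), was at 2.15, 3.31 and 1.78 CPM in control, at 39.1, 41.9 and 40.3 CPM in LATS1/2-KO and at 37.99, 49.1 and 50.7 CPM in LATS1/2-Sox9-KO. The replicates of each group lay close together and far from control, with a log2 fold change of 4.06 ± 0.23 (SE), adjusted p = 1.82e-06. The borealin gene Cdca8 rose by 4.02 and the kinase gene Aurkb by 3.46 on the log2 scale. Incenp, the scaffold of the complex, started from the highest level in control and rose by 1.99.

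Centromere and kinetochore genes, 9 in number, were all called higher in both comparisons with control, with log2 fold changes from 2.84 to 4.41 in LATS1/2-KO and from 2.87 to 4.39 in LATS1/2-Sox9-KO. Spc24, a subunit of the Ndc80 complex that grips microtubules (ENSMUSG00000074476, chr9:21755442-21760303, minus strand), was at 1.51, 4.59 and 1.18 CPM in control, at 23.9, 18.6 and 19.96 CPM in LATS1/2-KO and at 16.2, 21.3 and 20.7 CPM in LATS1/2-Sox9-KO. Control replicate 2 was above the other control libraries but below every KO library, while the KO groups overlapped, with a log2 fold change of 3.097 ± 0.44 (SE), adjusted p = 0.000243 in LATS1/2-KO, or 3.95 without that library. Its partners Ndc80, Nuf2 and Spc25 rose by 3.62, 3.57 and 2.84 on the log2 scale. The kinesin gene Cenpe rose by 4.41, Sgo1, which protects centromeric cohesin, by 4.25, and Cenpf by 4.04. Cenpa, the centromeric histone H3 variant, rose by 3.18, and Knl1, the platform for BUB proteins, by 3.47, with a standard error of 0.58 that was among the widest of the 50 genes.

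Among the partners of the APC/C, securin and separase, 3 of 4 genes were called higher. Cdc20, the activator that the checkpoint restrains (ENSMUSG00000006398, chr4:118432901-118437352, minus strand), was at 4.91, 6.93 and 3.26 CPM in control, at 38.6, 56.02 and 58.8 CPM in LATS1/2-KO and at 42.8, 47.8 and 52.8 CPM in LATS1/2-Sox9-KO. Every KO library was above every control library, and the log2 fold change was 3.34 ± 0.27 (SE), adjusted p = 9.19e-06. Ube2c, the ubiquitin-conjugating enzyme of the APC/C, rose by 4.26, and the separase gene Espl1 by 1.79 with an adjusted p of 0.00151. Pttg1, the securin gene (ENSMUSG00000020415, chr11:43420250-43426251, minus strand), was at 29.7, 30.4 and 22.04 CPM in control, at 27.2, 32.1 and 23.3 CPM in LATS1/2-KO and at 35.9, 29.9 and 28.4 CPM in LATS1/2-Sox9-KO. All 3 groups overlapped. Its log2 fold change was 0.00662 (95% interval -0.38 to 0.39, adjusted p = 0.978) in LATS1/2-KO and 0.196 (95% interval -0.19 to 0.58, adjusted p = 0.354) in LATS1/2-Sox9-KO, both intervals within 1 of 0. Per length, securin was the most abundant of the 50 transcripts in control, at 46.5 TPM (transcripts-per-million), and stood at 44.7 and 46.03 TPM in the KO groups. Its target separase went from 0.868 to 2.88 and 3.45 TPM and was the least abundant of the 50 in both KO groups. The RefSeq start of Pttg1 lies inside a longer annotated transcript, so its promoter window covers 1 of several starts.

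**Figure D3:**
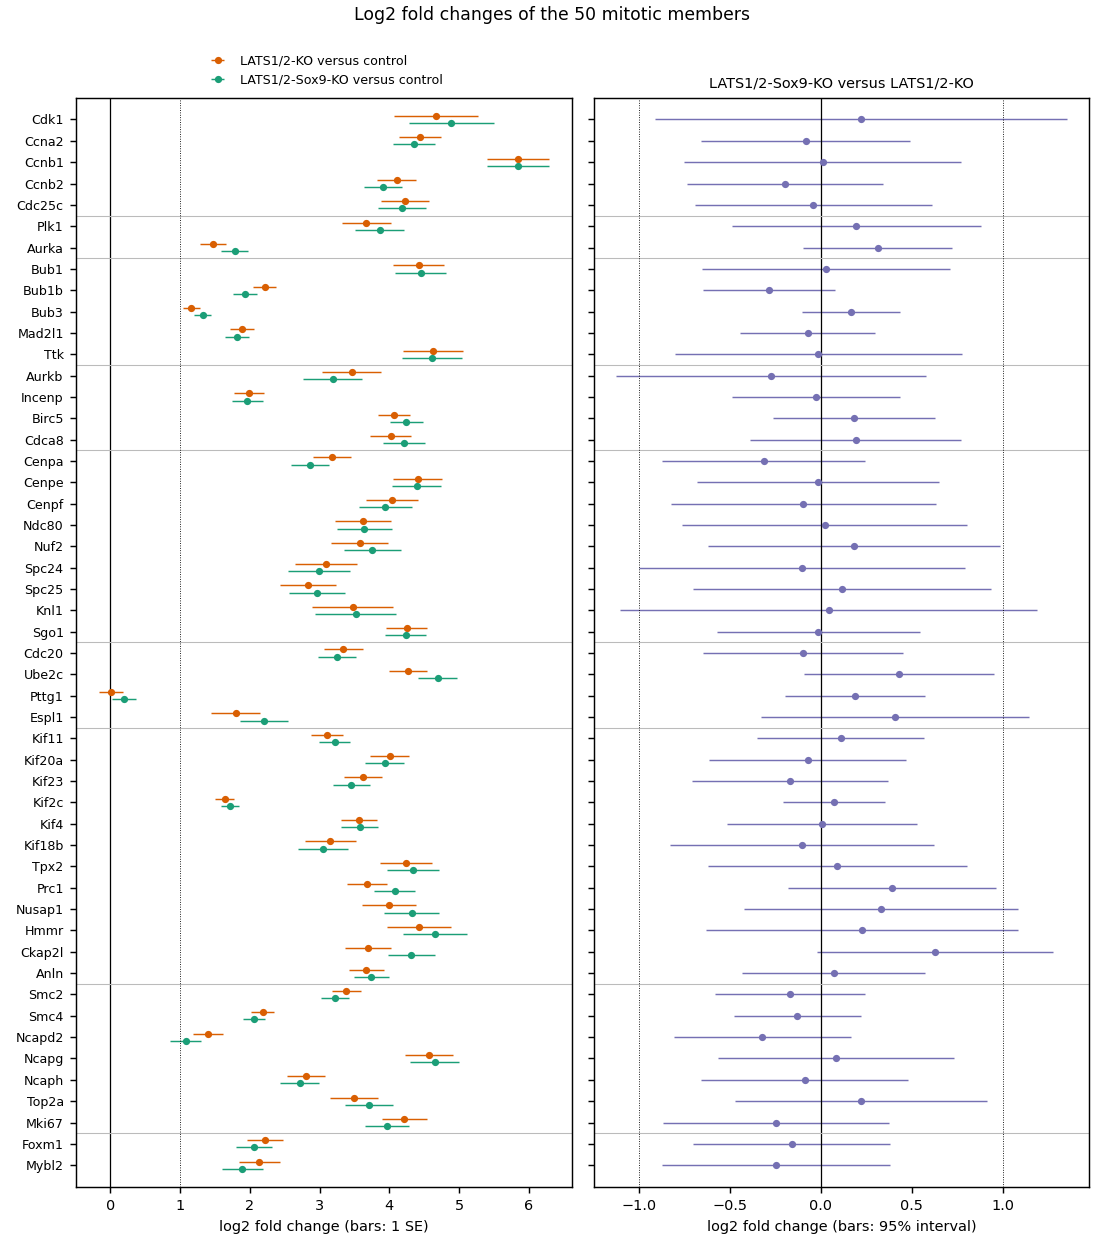
Log2 fold changes of the 50 genes, grouped by role with grey lines. The left panel gives LATS1/2-KO and LATS1/2-Sox9-KO versus control with bars of 1 SE and a dotted line at 1, which every gene except Pttg1 exceeds, and the right panel gives LATS1/2-Sox9-KO versus LATS1/2-KO with 95% intervals and dotted lines at -1 and 1, where all 50 intervals include 0.

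Spindle motors, microtubule binders and cytokinesis genes formed the largest group, and all 12 were called higher in both comparisons with control. Anln, the anillin gene of the contractile ring (ENSMUSG00000036777, chr9:22332012-22389188, minus strand), was at 16.1, 30.8 and 31.9 CPM in control, at 295, 387 and 320.2 CPM in LATS1/2-KO and at 322, 361 and 371 CPM in LATS1/2-Sox9-KO. It had the highest CPM of the 50 genes in the KO libraries, which did not overlap with control, and a log2 fold change of 3.67 ± 0.25 (SE), adjusted p = 3.86e-06. The motor gene of spindle bipolarity, Kif11, rose by 3.104 on the log2 scale, and the midzone motor genes Kif20a, Kif23 and Kif4 by 4.003, 3.63 and 3.57. Kif2c, a kinesin that takes microtubules apart, had the smallest rise of the group, 1.64, and Hmmr the largest, 4.43. The midzone bundler Prc1 rose by 3.69, the spindle assembly factor Tpx2 by 4.24 and Nusap1 by 3.99.

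Condensin I, topoisomerase II alpha and Ki-67 shape and coat the mitotic chromosome, and all 7 of their genes were called higher. Top2a (ENSMUSG00000020914, chr11:98992943-99024189, minus strand) was at 12.8, 31.6 and 12.7 CPM in control, at 247, 205 and 189 CPM in LATS1/2-KO and at 217, 253 and 277 CPM in LATS1/2-Sox9-KO. Control replicate 2 was the highest control library and lay far below the lowest KO library, and the log2 fold change was 3.49 ± 0.34 (SE), adjusted p = 2.52e-05. Ncapd2, a condensin I subunit (ENSMUSG00000038252, chr6:125168007-125191701, minus strand), was at 23.8, 27.5 and 14.8 CPM in control, at 55.1, 51.4 and 67.998 CPM in LATS1/2-KO and at 40.2, 46.2 and 53.3 CPM in LATS1/2-Sox9-KO. The KO groups overlapped and both lay above control. The log2 fold change was 1.3997 ± 0.22 (SE), adjusted p = 0.00046 in LATS1/2-KO, the smallest rise after that of Bub3 among the called genes, and 1.08 ± 0.22 (SE), adjusted p = 0.00197 in LATS1/2-Sox9-KO, the smallest among the genes called there. The call in LATS1/2-Sox9-KO was lost without control replicate 3 (log2 fold change 0.87) or without LATS1/2-Sox9-KO replicate 3 (0.98). In the same complex Ncapg rose by 4.57, Ncaph by 2.803, Smc2 by 3.38 and Smc4 by 2.19. Mki67, the proliferation marker, rose by 4.22 on the log2 scale, an 18.6-fold difference.

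Foxm1 and Mybl2 encode the factors that switch on late cell cycle genes. Foxm1 (ENSMUSG00000001517, chr6:128362967-128376146, plus strand) was at 7.18, 9.23 and 5.596 CPM in control, at 25.04, 29.96 and 47.3 CPM in LATS1/2-KO and at 31.7, 28.7 and 31.2 CPM in LATS1/2-Sox9-KO. LATS1/2-KO replicate 3 was the highest library, the KO groups overlapped, and neither overlapped with control. Its log2 fold change was 2.22 ± 0.26 (SE), adjusted p = 6.49e-05, and that of Mybl2 was 2.13 ± 0.296 (SE), adjusted p = 0.000199, both below the median of the 50 genes.

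In 3 of the 4 assemblies compared, the partners lay closer together in level in the KO groups than in control. Levels are compared between genes per length, as TPM from the counts and the exon length of each gene. In condensin I, the most abundant subunit, Smc4, was at 18.2 TPM and the least abundant, Ncapg, at 0.709 TPM in control, a ratio of 25.7 (19.5 to 41.5 over the 3 libraries). In LATS1/2-KO they were at 79.3 and 16.1 TPM, a ratio of 4.92 (4.60 to 5.31), and in LATS1/2-Sox9-KO the ratio was 4.23 (3.72 to 4.94). The ratio in every KO library was therefore below that in every control library. In the chromosomal passenger complex the ratio of the highest to the lowest subunit was 4.19 in control (3.30 to 5.42), 1.58 in LATS1/2-KO (1.27 to 2.12) and 2.16 in LATS1/2-Sox9-KO (2.06 to 2.32). In the Ndc80 complex, where Spc24 had the highest and Nuf2 the lowest mean in each group, the ratio of means was 3.30 in control, 2.37 in LATS1/2-KO and 1.94 in LATS1/2-Sox9-KO. Library by library it was 3.08 to 4.13, 2.01 to 2.67 and 2.03 to 2.08. In all of these ranges over libraries, the highest and the lowest subunit were taken anew in each library. Among the mitotic checkpoint proteins Bub1b, Bub3, Mad2l1 and Cdc20 the ratio did not narrow, at 4.79 in control, 5.01 in LATS1/2-KO and 4.93 in LATS1/2-Sox9-KO. The differences in these ratios were not tested. Over all 50 genes, the levels ran from 0.4103 TPM for Ttk to 46.5 TPM for Pttg1 in control and from 2.88 TPM for Espl1 to 148 TPM for Ccnb2 in LATS1/2-KO. The number of genes below 1 TPM was 10 in control and 0 in both KO groups. The median gene stood at percentile 33.5 of all tested genes in control, at percentile 71.2 in LATS1/2-KO and at percentile 70.0 in LATS1/2-Sox9-KO.

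**Figure D4:**
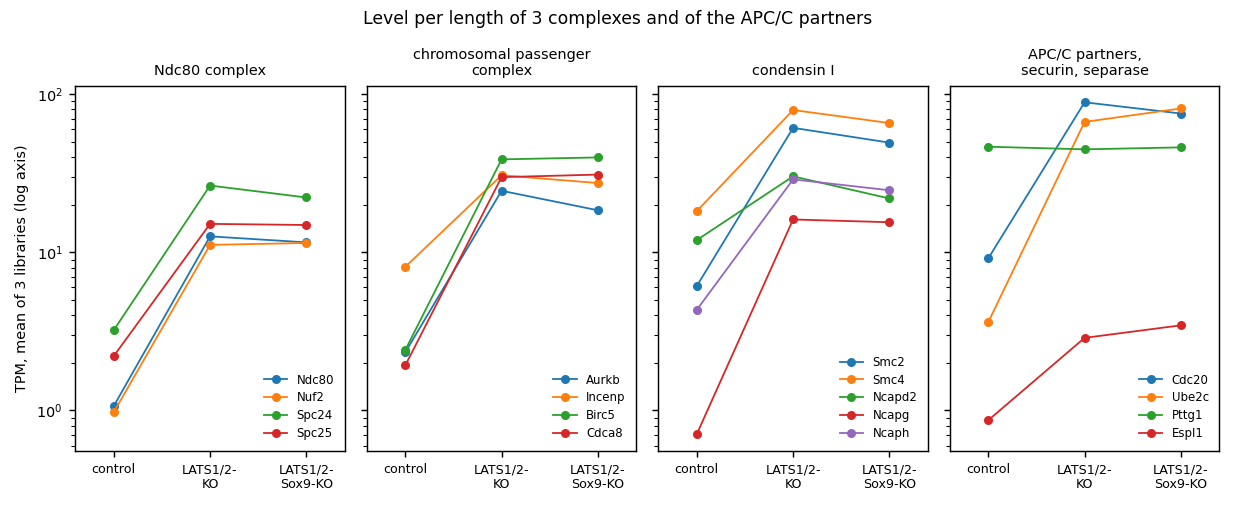
Level per length (TPM, mean of 3 libraries, log axis) by genotype, for the subunits of the Ndc80 complex, the chromosomal passenger complex and condensin I, and for the APC/C partners Cdc20 and Ube2c with securin (Pttg1) and separase (Espl1). The subunits of condensin I and of the chromosomal passenger complex lie closer together in both KO groups than in control, and Pttg1 stays between 44.7 and 46.5 TPM while Cdc20 and Ube2c rise past it.

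Between the KO groups, no mitotic gene passed the test. In LATS1/2-Sox9-KO versus LATS1/2-KO, 0 of the 50 genes were called in either direction, beside 3.71% of all tested genes (719 genes), and 0 had an adjusted p of at most 0.05, beside 6.45% of all tested genes. The edgeR test gave 0 genes at an unadjusted p under 0.05, and DESeq2 gave 0 calls and 0 genes by the adjusted p alone. The count over all genes was itself unstable, at 32 with glmTreat, a test against a log2 fold change of 1, at 1259 with DESeq2, at 1079 without LATS1/2-KO replicate 1, at 278 without LATS1/2-KO replicate 3 and at 446, 201 and 475 without LATS1/2-Sox9-KO replicates 1, 2 and 3. The median log2 difference was 0.0086, with 26 estimates above 0 and 24 below, beside a median of -0.015 over all tested genes. The 95% interval lay within 1 of 0 on the log2 scale for 42 genes, and for the other 8 it reached past 1 or -1, with the widest bounds at -1.12 and 1.35. The estimates ran from -0.32 for Ncapd2 to 0.63 for Ckap2l. Ckap2l, a microtubule binder of the spindle, was at 2.56, 4.45 and 1.41 CPM in control, at 35.8, 38.9 and 34.3 CPM in LATS1/2-KO and at 53.4, 58.2 and 56.7 CPM in LATS1/2-Sox9-KO, so that all 3 LATS1/2-Sox9-KO libraries lay above all 3 LATS1/2-KO libraries. Its adjusted p was 0.235 (95% interval -0.019 to 1.27), and 0.0225 when only these 2 groups were fitted. Ube2c also lay higher in every LATS1/2-Sox9-KO library, by 0.43 on the log2 scale (95% interval -0.089 to 0.95, adjusted p = 0.312). For 41 of the 50 genes the 2 KO groups overlapped, as they did for 72.1% of all tested genes.

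Libraries of one group differed in the level of the whole set. The 50 genes summed to 233, 342 and 213 TPM in control replicates 1 to 3, to 1791, 1932 and 1912 TPM in LATS1/2-KO, and to 1509, 1791 and 1949 TPM in LATS1/2-Sox9-KO. The sum was thus 263 ± 69.2 TPM in control, 1878 ± 76.6 TPM in LATS1/2-KO and 1749.9 ± 223 TPM in LATS1/2-Sox9-KO (SD, n = 3), and no KO library came near a control library. Control replicate 2 was the highest control library for 46 of the 50 genes, as it was for 27.1% of all tested genes. Without it, the median log2 fold change was 4.15 in LATS1/2-KO and 4.24 in LATS1/2-Sox9-KO, and 49 genes were called higher in each. In both comparisons the fold of 15 genes moved by over 1.5 times without it, among them Ccnb1, from 5.84 to 6.64 on the log2 scale in LATS1/2-KO, and Ttk, from 4.63 to 5.35. LATS1/2-Sox9-KO replicate 1 was the lowest of its group for 44 of the 50 genes, as it was for 40.0% of all tested genes. Its depth, 61967651 counts, was the highest of the 9 libraries.

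Genes that work beside these 50 were counted with the same rule, beside 17.1% of all tested genes called higher in LATS1/2-KO and 17.8% in LATS1/2-Sox9-KO. Of the 7 other mitotic kinesins, 6 were called higher in both comparisons with control, with medians of 3.03 and 3.07 on the log2 scale, led by Kif22 at 4.13. Of the 13 inner kinetochore (CCAN) genes, 8 were called higher in both, led by Cenpw in LATS1/2-KO (3.46) and Cenpu in LATS1/2-Sox9-KO (3.15). The outer kinetochore complexes Mis12, Ska and RZZ had 10 of 12 genes called higher in LATS1/2-KO, led by Ska1 at 4.86, and 9 in LATS1/2-Sox9-KO, led by Nsl1 at 4.56. Without control replicate 2 the log2 fold change of Nsl1 in LATS1/2-Sox9-KO was 5.36. The G1/S genes, which license and start DNA replication, had 12 of 15 called higher in both, with lower medians of 1.75 and 1.73, led by the licensing inhibitor Gmnn in LATS1/2-KO (2.67) and the factor E2f2 in LATS1/2-Sox9-KO (3.91).

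Core machines that also work outside mitosis were counted beside the same shares of all tested genes. Of the 14 core subunits of the APC/C, 2 were called higher in LATS1/2-KO and 1 in LATS1/2-Sox9-KO, with medians of 0.30 and 0.31, led by Anapc10 at 1.11 and 1.19, a share no higher than that of all tested genes. Without LATS1/2-KO replicate 2 the log2 fold change of Anapc10 in LATS1/2-KO was 0.97, short of a call. Cohesin and its regulators had 4 and 3 of 13 called higher, led by the S-phase acetyltransferase Esco2 at 3.98 and 4.16, and Cdca5, the sororin gene, rose by 3.32. Without control replicate 2 the log2 fold changes of Esco2 were 4.82 and 5.003. Of the 3 subunits particular to condensin II, Ncapg2 was called higher in both (2.97 and 2.83). The DREAM and MuvB complex, which holds cell cycle genes off in resting cells and switches them on with B-MYB, had 2 of 11 genes called higher in LATS1/2-KO, led by Lin9 at 1.699, a share close to that of all tested genes. In LATS1/2-Sox9-KO 2 were called higher and 1 lower, the pocket protein gene Rbl2 at -1.54. Mitotic entry brakes and exit phosphatases had 3 of 9 called higher in both, with medians of -0.016 and 0.12. They were led by Mastl, the Greatwall kinase gene, which went from 0.496, 1.69 and 0.486 CPM in control to 19.7, 32.5 and 28.98 CPM in LATS1/2-KO and 21.4, 27.5 and 28.99 CPM in LATS1/2-Sox9-KO, a rise of 4.92 and 4.86 on the log2 scale. The rise of Mastl was 5.78 and 5.72 without control replicate 2.

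Of the 14 kinesins of transport, 5 were called lower and 1 higher in both comparisons with control, with medians of -0.22 and -0.06, beside 17.5% and 19.6% of all tested genes called lower. Kif5c, a motor of axonal transport, was at 201, 255 and 251 CPM in control, at 5.46, 3.26 and 2.56 CPM in LATS1/2-KO and at 1.64, 1.11 and 1.15 CPM in LATS1/2-Sox9-KO and was called lower, with log2 fold changes of -5.97 and -7.499, while Kif3a, a motor of cilia, rose by 1.18 and 1.01. The second of these lies at the fold needed for a call, which was lost without control replicate 1 (0.95) or 2 (0.92) and under 4 other alternatives (0.981 to 0.995). Of the 12 meiotic counterparts, 8 did not pass the filter on low counts, and of the 4 tested 2 were called lower and 0 higher in both comparisons. The meiotic cohesin gene Rec8 was at 11.1, 13.8 and 8.14 CPM in control, at 1.98, 0.189 and 0.576 CPM in LATS1/2-KO and at 0.638, 0.537 and 0.322 CPM in LATS1/2-Sox9-KO, a log2 fold change of -3.604 ± 0.68 (SE), adjusted p = 0.00136 in LATS1/2-KO, or -4.85 without LATS1/2-KO replicate 1.

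**Figure D5:**
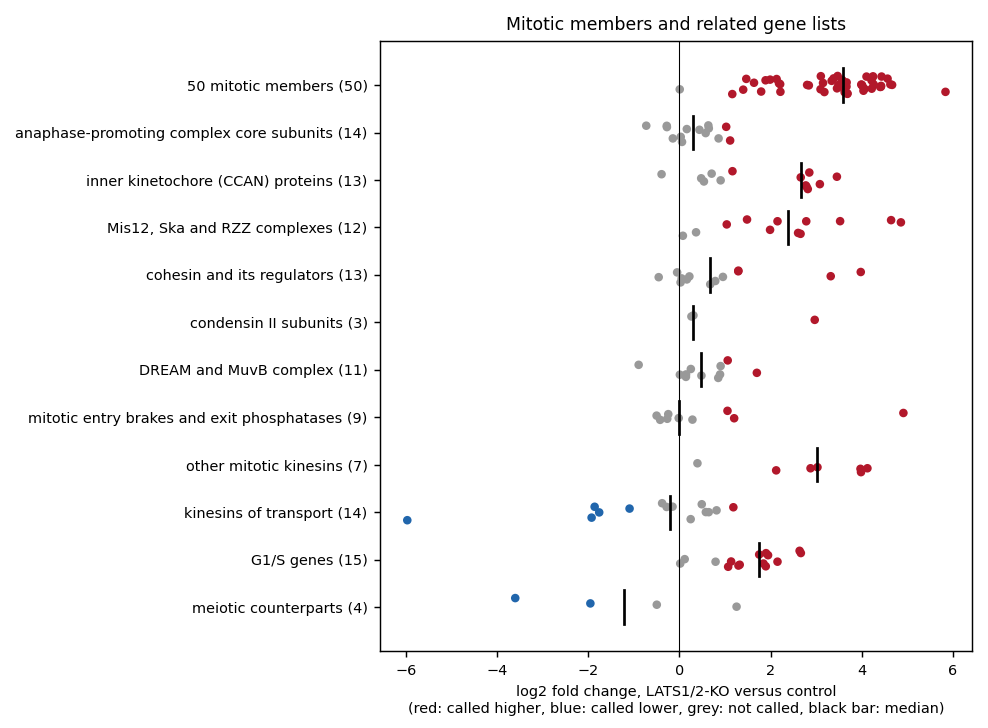
Log2 fold change in LATS1/2-KO versus control of each tested gene (points) in the 50 mitotic genes and 11 related lists, with the number of tested genes in brackets and the median as a black bar. The mitotic genes, other mitotic kinesins and kinetochore lists lie mostly to the right, with medians of 3.60, 3.03, 2.66 and 2.38, while core APC/C subunits and transport kinesins centre near 0.

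Between the KO groups, 4 of the 115 tested genes of these lists were called (3.48%), beside 3.71% of all tested genes, so the share was no higher in the lists than over all genes. The values of the 4 are given as a description. E2f2 was at 13.7, 17.7 and 17.1 CPM in LATS1/2-KO and 48.5, 38.7 and 30.2 CPM in LATS1/2-Sox9-KO, without overlap and with a log2 difference of 1.28 ± 0.27 (SE), adjusted p = 0.0253. The call on E2f2 was lost without LATS1/2-KO replicate 3 (adjusted p = 0.0789), LATS1/2-Sox9-KO replicate 1 (0.075) or LATS1/2-Sox9-KO replicate 2 (0.0818). Tfdp2, a dimer partner of E2F factors, was lower in LATS1/2-Sox9-KO, with a log2 difference of -1.005 ± 0.203 (SE), adjusted p = 0.0218, and its adjusted p lay between 0.059 and 0.107 without LATS1/2-KO replicate 2 or 3 or without LATS1/2-Sox9-KO replicate 1 or 2, while 4 other alternatives gave log2 differences just short of a call, from -0.998 to -0.973. Kif5c was lower, with a log2 difference of -1.53 ± 0.28 (SE), adjusted p = 0.0152, with an adjusted p of 0.0706 without LATS1/2-Sox9-KO replicate 2 and 0.0518 without LATS1/2-Sox9-KO replicate 3. Kif21b was lower, with a log2 difference of -1.89 ± 0.35 (SE), adjusted p = 0.0154, with an adjusted p of 0.0551 without LATS1/2-Sox9-KO replicate 1 and 0.076 without LATS1/2-Sox9-KO replicate 2. Wee1, the kinase that holds CDK1 inactive, was chosen after its values were seen. It was at 54.2, 43.02 and 61.2 CPM in control, at 57.9, 71.3 and 63.8 CPM in LATS1/2-KO and at 157, 119.96 and 102 CPM in LATS1/2-Sox9-KO, with a log2 difference between the KO groups of 0.97 ± 0.18 (SE), adjusted p = 0.0159, and an adjusted p of 0.0622 without LATS1/2-KO replicate 3 and 0.0522 without LATS1/2-Sox9-KO replicate 2. The difference of 0.97 was short of the fold needed for a call. Wee1 was called with no filter (1.005), without LATS1/2-KO replicate 2 (1.08) and without LATS1/2-Sox9-KO replicate 3 (1.13).

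Markers of cell types were read beside these results. Of all tested genes, 17.1% were called higher and 17.5% lower in LATS1/2-KO versus control. In LATS1/2-Sox9-KO versus control the shares were 17.8% and 19.6%. The marker lists are short, so the counts of called genes are given as a description. The luminal list summed to 16572, 16119 and 18425 CPM in control, 18317, 18162 and 18595 CPM in LATS1/2-KO and 31052, 28145 and 26072 CPM in LATS1/2-Sox9-KO, with Krt18 the most abundant of its 6 genes. In LATS1/2-KO 0 of the 6 were called higher and 1 lower, Krt19 with a log2 fold change of -1.03 ± 0.24 (SE), adjusted p = 0.00418. That call was lost with upper-quartile factors (-0.986) and without control replicate 3 (-0.92), LATS1/2-KO replicate 2 (-0.82) or LATS1/2-KO replicate 3 (-0.95), all at an adjusted p of at most 0.05. In LATS1/2-Sox9-KO 2 were called higher and 1 lower, Epcam with -1.299 ± 0.11 (SE), adjusted p = 6.18e-06. In LATS1/2-KO Epcam was lower, with a log2 fold change of -0.74 ± 0.104 (SE), adjusted p = 0.000215, short of the fold needed for a call. The basal and myoepithelial list summed to 72.1, 95.1 and 85.5 CPM in control, 4874, 2913 and 2820.4 CPM in LATS1/2-KO and 2262, 4611 and 6617 CPM in LATS1/2-Sox9-KO, so that every KO library was above every control library. Most of this was Krt14, at 16.9, 9.31 and 11.3 CPM in control, at 4699.9, 2606 and 2592 CPM in LATS1/2-KO and at 2175, 4458 and 6497 CPM in LATS1/2-Sox9-KO, and of the 6 basal genes 2 were called higher and 2 lower in LATS1/2-KO, and 3 higher and 3 lower in LATS1/2-Sox9-KO. Its transcription factor Trp63 was at 6.94, 40.01 and 39.6 CPM in control, at 1.304, 0.756 and 0.9997 CPM in LATS1/2-KO and at 0.604, 2.04 and 2.12 CPM in LATS1/2-Sox9-KO. Trp63 was called lower in both comparisons with control, with log2 fold changes of -4.82 in LATS1/2-KO and -4.19 in LATS1/2-Sox9-KO. The immune list of 9 genes summed to 14.1, 7.96 and 6.66 CPM in control, 76.2, 50.7 and 34.97 CPM in LATS1/2-KO and 58.97, 64.1 and 84.97 CPM in LATS1/2-Sox9-KO. Its most abundant gene was Lyz2 in control and Csf1r in both KO groups. Csf1r was the only one of its genes called in LATS1/2-KO, while 2 were called higher in LATS1/2-Sox9-KO. The pan-leukocyte gene Ptprc was at 0.754, 1.03 and 0.324 CPM in control, at 3.09, 0.645 and 0.203 CPM in LATS1/2-KO and at 1.57, 0.555 and 1.997 CPM in LATS1/2-Sox9-KO, and the T cell gene Cd3e was at 0 in every library. The fibroblast list of 5 genes summed to 43.4, 77.7 and 169 CPM in control, 111, 24.7 and 46.8 CPM in LATS1/2-KO and 35.2, 47.6 and 81.2 CPM in LATS1/2-Sox9-KO. By mean CPM it was led by Dcn in control and by Col1a1 in both KO groups. In LATS1/2-KO 3 of its genes were called higher and 1 lower, and in LATS1/2-Sox9-KO 2 higher and 2 lower. The endothelial list of 4 genes summed to 7.74, 6.85 and 11.9 CPM in control, 12.8, 11.1 and 10.6 CPM in LATS1/2-KO and 4.35, 13.6 and 12.9 CPM in LATS1/2-Sox9-KO. It was led by Pecam1 in control and LATS1/2-KO and by Kdr in LATS1/2-Sox9-KO. Of these genes, 1 was called higher in both comparisons with control and 1 lower in LATS1/2-Sox9-KO. The adipocyte list of 4 genes summed to 0.0646, 0.232 and 0.162 CPM in control, 0.1304, 15.3 and 7.998 CPM in LATS1/2-KO and 0.604, 3.94 and 2.94 CPM in LATS1/2-Sox9-KO. It was led by Plin1 in control and by Cidec in both KO groups, with 3 called higher in both comparisons with control. The erythroid list of 5 genes summed to at most 1.38 CPM in any library, with 3 genes at 0 throughout and the 1 tested gene called lower in LATS1/2-Sox9-KO. The part of these cell types in the rise of the mitotic genes was not tested.

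The library kit does not mark strand and the study states that pairs were counted on the same strand. Without strand in the library, reads where exons of different genes overlap cannot be assigned by strand. Among the 50 genes this touches Kif20a, with 29.3% of its exon bases shared with Cdc23, and Ube2c, with 22.8% shared with Tnnc2, the largest shares of the 50. Cdc23 itself changed little, by 0.057 on the log2 scale in LATS1/2-KO versus control (adjusted p = 0.7). No value is given for Tnnc2, and the part of shared reads in the rise of Kif20a or Ube2c was not tested.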

How the data were processed

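Counts per gene were taken as the authors deposited them, without normalization. The authors aligned paired reads from TruSeq RNA v2 libraries, which do not keep strand, to mm10 with STAR 2.6.0c, used featureCounts of Subread 1.6.2 to count proper pairs with a unique alignment on the same strand, as stated, for each Ensembl gene, and left out mitochondrial genes. From these counts, genes were filtered with filterByExpr, scaled by TMM and fitted in 1 quasi-likelihood model of the 3 group means over all 9 libraries (edgeR 4.0.16, R 4.3.3), which was tested on simulated data. Adjustment followed Benjamini and Hochberg over all 19357 tested genes, and a call needed a log2 fold change above 1 in size and an adjusted p of at most 0.05. SE is the log2 fold change divided by the square root of the F statistic. TPM used the union of exons in GENCODE M21 (GRCm38), which also gave the coordinates. DESeq2 1.42.0 served as an alternative. The members, the related lists, the markers and the patterns were chosen with earlier results of these data known. Genes given in every library were the targeted genes, the member with the highest level per length in each role group, the 3 largest and 3 smallest changes and any member not called. In the related lists, the genes named were the called gene with the largest change and any called against the majority. Of these, Mastl, Kif5c and Rec8 are given in every library, E2f2 in the KO libraries and the others by log2 fold change. Among the markers, Krt18, Krt14, Trp63 and Ptprc are also given in every library. Ckap2l, Ube2c, Wee1, Cdca5, Krt19 and Epcam were added after their values were seen. Counts differed within every group by more than sampling noise, the chi-square per gene lying between 17.4 and 139. With at least 44167762 counts per library, the 3 libraries a group set the precision more than depth does.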

Additional observations from a re-analysis of the deposited data

How the results depend on the processing

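The number of mitotic genes called higher was 49 in both comparisons with control under every alternative except glmTreat, which tests against a log2 fold change of 1 and gave 47 and 48, and except without control replicate 3 and without LATS1/2-Sox9-KO replicate 3, which gave 48 in LATS1/2-Sox9-KO versus control. No alternative called a member lower, and between the KO groups no alternative called a member. Fitting only these 2 groups gave 1 member (Ckap2l) with an adjusted p of at most 0.05. Leaving out each library in turn, the median log2 fold change of the members ran from 3.33 to 4.15 in LATS1/2-KO and from 3.48 to 4.24 in LATS1/2-Sox9-KO versus control, highest without control replicate 2. The log2 fold change of Pttg1 in LATS1/2-KO versus control changed sign while staying near 0, at -0.026 with RLE factors, -0.0078 with at least 10 counts in every library, -0.027 with DESeq2 and -0.14 to 0.12 with a library left out. All other changes of the members against control kept their direction and their side of an adjusted p of 0.05 under 14 alternatives each. Summed TPM in LATS1/2-KO was 1989 with the longest transcript as length.

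Over all tested genes, glmTreat called 1962 higher and 2043 lower in LATS1/2-KO versus control and 2240.0 higher and 2468 lower in LATS1/2-Sox9-KO versus control. Between the KO groups, glmTreat called 18 higher and 14 lower and DESeq2 509 higher and 750.0 lower, against 301 and 418, and leaving out a library gave 121 to 497 higher and 78 to 582 lower. The cause was not tested. With the replicate number as a block (replicate block), the members called stayed at 49, 49 and 0 and all genes called between the KO groups were 265 higher and 336 lower. Libraries with the same number correlated by -0.066 to 0.17 in their deviations from the group means, and 2 of 9 pairs were above 0.1. Both of these joined LATS1/2-KO with LATS1/2-Sox9-KO (0.105 and 0.17). Libraries with different numbers correlated by -0.16 to 0.064, and 0 of 18 pairs were above 0.1. These values do not settle whether the numbers pair libraries, and the number served as a block only in this alternative. At this depth the lowest count of a member in any library was 10, so counting error is largest for the rarest members in control.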
